A study of Mus musculus with 12 samples.

Results

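The genes of fatty acid, cholesterol and phospholipid synthesis were followed through the perinatal development of the mouse lung. They were 32 genes chosen by symbol for their known roles, without use of any measured value, out of the 16152 genes of the count table. All 32 passed the filter on low counts, so all were among the 15994 genes tested. They fall into 4 classes: 10 genes that build, elongate or desaturate fatty acids, 4 regulators of the SREBP system, 9 genes of sterol synthesis, and 9 genes of phospholipid and phosphatidate synthesis.

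The lungs came from C57BL/6 mice of both sexes, with no treatment or engineered allele named, at 2 embryonic (E15.5 and E18.5) and 2 postnatal (P5 and P8) time-points. Whole lungs were used, 3 replicates at each time-point, which gave 12 libraries of polyadenylated RNA. The study used these samples to follow gene expression and splicing across birth. Each time-point was sampled from a single litter, so litter and time-point cannot be told apart, and the p-values given here measure only the spread between litter mates. In whole lung, a change in the number of cells of a type and a change in RNA per cell cannot be told apart.

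Cells make palmitate from citrate through acetyl-CoA and malonyl-CoA, then lengthen and desaturate it, while the mevalonate pathway turns acetyl-CoA into squalene and cholesterol. Both routes are under SREBP transcription factors, which the SCAP protein escorts out of the endoplasmic reticulum when sterols are low and which INSIG proteins hold back when sterols are high. In the lung, alveolar type 2 (AT2) cells load phosphatidylcholine rich in palmitate into surfactant, and choline reaches phosphatidylcholine through choline kinase, CTP:phosphocholine cytidylyl transferase and the final cholinephosphotransferase step.

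The reads counted per library ranged from 41337443 to 53901957. All 7 AT2 marker genes were detected in every library, with a summed level of 605 to 2190 CPM (read counts scaled to the mapped reads of the library) in the 6 embryonic libraries and 14770 to 19770 CPM in the 6 postnatal ones. Some libraries also held markers of tissue other than lung. The summed level of 7 adipocyte markers was at most 1.47 CPM in the embryonic libraries and was 3.69, 26.9 and 146 CPM at P5 and 397, 782 and 21.2 CPM at P8 (replicates 1, 2 and 3). P8 replicates 1 and 2 held 135 and 268 CPM of thymocyte markers and 724 and 547 CPM of oesophageal squamous markers, against 10.7 and 3.39 CPM in replicate 3. Cardiac muscle markers summed to 583 and 644 CPM in E15.5 replicates 1 and 2, to 16.9 CPM in replicate 3 and to 192 CPM in P8 replicate 2. Thymocyte markers also reached 17.4 CPM in E15.5 replicate 2. Hepatocyte markers summed to 8.99, 82.0 and 26.4 CPM in P8 replicates 1, 2 and 3 and to at most 2.56 CPM in the earlier libraries. The adipocyte values are given again beside genes that moved with them. The part of all these markers in the results was not tested except by leaving libraries out.

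Promoters were available for 26 of the 32 genes, as RefSeq entries on GRCm38.p6. The 250 bases before each start were searched on both strands for the core of the sterol regulatory element (TCACNCCAC), for CCAAT, the box that binds NF-Y, and for the E-box CACGTG. The sterol element core was present in Hmgcs1 and in 2 of the 3 starts of Pcyt1a and in none of the others, against 1.05% of the 32851 promoters in the table. The stretches searched before those 2 Pcyt1a starts overlap and hold the same single match. CCAAT was found in all 6 sterol genes with an entry, in 3 of 7 fatty acid genes, in 3 of 4 regulators and in 5 of 9 phospholipid genes, and in 33.8% of all promoters. CACGTG was in 5 of the 26 genes (Elovl5, Insig1, Scap, Dhcr7 and Lpin2) and in 6.02% of all promoters. Genes with several starts had several chances to hold a match, and a match is a description of the letters, not of binding.

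The promoters of 5 genes are shown as examples from every class but the regulators. Fasn carries the last step of palmitate synthesis. Hmgcs1, Idi1 and Mvk are sterol genes with 3, 2 and 5 CCAAT matches, and Pcyt1a is the phospholipid gene with the sterol element core. Capitals mark CCAAT, or its reverse complement ATTGG, and the core written TCACCCCAC. In Fasn 2 of the matches overlap.

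Fasn (chr11:120824548-120824797, minus strand): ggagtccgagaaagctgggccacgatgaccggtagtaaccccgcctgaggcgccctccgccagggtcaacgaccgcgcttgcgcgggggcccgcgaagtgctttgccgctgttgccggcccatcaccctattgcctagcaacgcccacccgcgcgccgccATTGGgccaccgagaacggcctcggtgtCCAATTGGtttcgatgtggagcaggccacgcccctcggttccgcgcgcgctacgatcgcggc
Hmgcs1 (chr13:119690101-119690350, plus strand): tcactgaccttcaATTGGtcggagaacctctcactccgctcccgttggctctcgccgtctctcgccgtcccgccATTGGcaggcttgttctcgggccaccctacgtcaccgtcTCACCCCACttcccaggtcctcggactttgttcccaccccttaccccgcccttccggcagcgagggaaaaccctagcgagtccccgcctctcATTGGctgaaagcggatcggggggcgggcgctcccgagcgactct
Idi1 (chr13:8885356-8885605, plus strand): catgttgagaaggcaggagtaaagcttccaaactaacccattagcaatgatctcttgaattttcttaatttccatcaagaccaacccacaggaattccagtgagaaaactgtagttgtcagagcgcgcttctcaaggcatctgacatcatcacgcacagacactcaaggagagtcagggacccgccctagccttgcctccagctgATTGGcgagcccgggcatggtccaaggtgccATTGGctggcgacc
Mvk (chr5:114444019-114444268, plus strand): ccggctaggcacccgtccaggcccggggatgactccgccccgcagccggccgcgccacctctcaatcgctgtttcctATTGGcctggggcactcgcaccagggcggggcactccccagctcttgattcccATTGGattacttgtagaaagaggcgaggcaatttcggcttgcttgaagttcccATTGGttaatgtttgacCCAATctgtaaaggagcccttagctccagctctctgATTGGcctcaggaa
Pcyt1a (chr16:32430671-32430920, plus strand): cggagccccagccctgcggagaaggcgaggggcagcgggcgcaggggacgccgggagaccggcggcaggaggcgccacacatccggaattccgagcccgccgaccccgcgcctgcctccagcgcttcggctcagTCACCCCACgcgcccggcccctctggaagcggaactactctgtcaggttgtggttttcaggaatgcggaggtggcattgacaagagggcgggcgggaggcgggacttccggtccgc

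The core lies 129 to 137 bases before the start of Hmgcs1 and 108 to 116 bases before the start of Pcyt1a. The Mvk promoter holds 5 CCAAT letters, more than any other promoter of these genes. Between E18.5 and P5, Hmgcs1 had a log2 fold change of -0.21 (edgeR FDR = 0.052) and Pcyt1a one of 0.33 (edgeR FDR = 0.00099).

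Across birth, from E18.5 to P5 (positive changes are higher at P5), 7 of 9 sterol genes fell and none rose, 6 of 9 phospholipid genes rose and none fell, and the fatty acid genes went both ways, with 4 that rose and 5 that fell. A gene is said to rise or fall here when its edgeR FDR over all 15994 genes was under 0.05. Over all 32 genes, 11 rose (34.4%) and 14 fell (43.8%), against a background of 35.4% of all genes tested that rose and 35.7% that fell, so the number of genes that moved was near the background. The median log2 fold change was -0.42 for sterol genes, 0.33 for phospholipid genes, -0.12 for fatty acid genes and -0.13 for the regulators, beside -0.002 for all genes tested. The difference between classes was not tested.

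Most of these changes were small. With the study's cutoffs for differential expression, an absolute log2 fold change above 1 together with an FDR under 0.05, only Scd1, Elovl1 and Elovl6 were called between E18.5 and P5. That is 2 genes higher (6.25%) and 1 lower (3.12%) of the 32, against 17.5% and 9.34% of all genes tested. All 3 belong to the fatty acid class and act after palmitate is made.

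**Figure D1:**
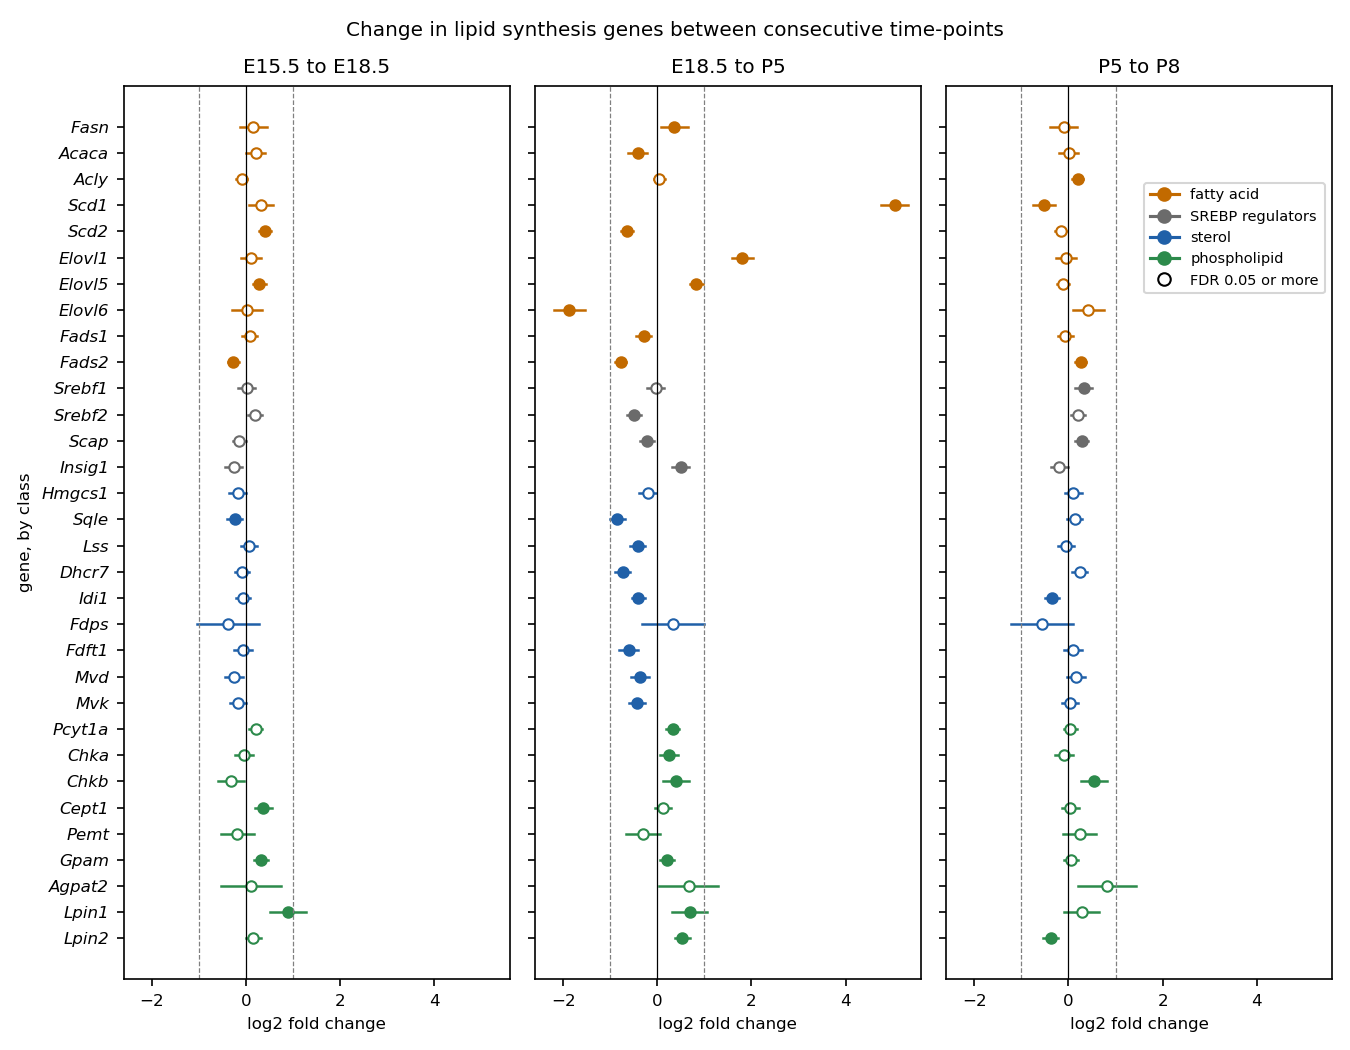
Log2 fold change of the 32 genes (x axis) between consecutive time-points in 3 panels, with genes on the y axis coloured by class. Points are edgeR estimates, bars their 95% intervals, filled points have an FDR under 0.05 and dashed lines mark a log2 fold change of 1 in either direction. Scd1 at 5.05 from E18.5 to P5 stands apart from all other genes, the sterol genes lie left of 0 in that panel except Fdps, and the phospholipid genes lie right of 0 except Pemt.

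The genes of palmitate synthesis had small changes across birth. Acly, which splits citrate into acetyl-CoA, was at 206, 210 and 203 CPM in the 3 replicates of E18.5 and at 207, 191 and 203 CPM at P5. The libraries of both time-points overlapped, and the log2 fold change was 0.04 (95% interval -0.07 to 0.16, edgeR FDR = 0.53). Acaca, the acetyl-CoA carboxylase that commits carbon to fatty acids, was at 83.2, 86.1 and 85.2 CPM at E18.5 and fell to 63.0, 56.3 and 59.8 CPM at P5, by 0.42 on the log2 scale (value -0.42 ± 0.10, standard error, edgeR FDR = 0.0029). All 3 libraries of P5 were below all 3 of E18.5. Fasn, the synthase that assembles palmitate, was at 211, 222 and 190 CPM at E18.5 and 282, 227 and 245 CPM at P5. The 3 values at P5 lay above the 3 at E18.5, by 0.36 in log2 fold change (standard error 0.15, edgeR FDR = 0.042). The call was kept in 10 of 22 alternatives (FDR between 0.0072 and 0.21). It was lost without E15.5 replicate 1, P5 replicate 3 or any 1 of the E18.5 and P8 replicates (values 0.30 to 0.41), and the value was 0.23 without P5 replicate 1, the library with the highest level. At E15.5 Fasn spread from 142 to 227 CPM, the lowest value being in replicate 2, a wider range than at any later time-point.

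The desaturase paralogues Scd1 and Scd2 moved in opposite directions across birth. They are stearoyl-CoA desaturases, which put the first double bond into palmitate and stearate, and lie near each other on chromosome 19 (Scd1 at chr19:44394455-44407879 on the minus strand, Scd2 at chr19:44293674-44306864 on the plus strand, GRCm38). Scd1 was at 13.8, 16.2 and 12.7 CPM at E15.5, at 17.3, 18.3 and 17.0 CPM at E18.5, at 640, 477 and 520 CPM at P5 and at 416, 374 and 367 CPM at P8. Every postnatal library was far above every embryonic one. The change from E18.5 to P5 was 5.05 on the log2 scale (33.1-fold, with a standard error of 0.15 in log2, edgeR FDR = 1.9e-10), and from P5 to P8 Scd1 fell by 0.52 (edgeR FDR = 0.015). P5 replicate 1 was highest in Scd1. Its 7 adipocyte markers summed to 3.69 CPM, of which Cidec made up 2.92 CPM and Plin1 0.514 CPM, with Adipoq, Cfd and Lep at 0. This was the lowest adipocyte sum at P5, but other marker sums were highest in that library. In P5 replicates 1, 2 and 3, AT2 markers summed to 19770, 17820 and 17060 CPM. Alveolar macrophage markers summed to 155, 101 and 94.9 CPM, and lipofibroblast markers to 590, 522 and 543 CPM. The part of any of these markers in the Scd1 level was not tested. Without the 3 libraries richest in adipocyte markers the rise was 5.10. The fall from P5 to P8 was -0.66 without those libraries but no longer past the threshold (FDR = 0.18, between 0.00045 and 0.18 over 22 alternatives), and it was -0.49 and not past it without P8 replicate 2 (FDR = 0.055).

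Scd2 was at 832, 805 and 870 CPM at E15.5, at 1077, 1124 and 1100 CPM at E18.5, at 678, 660 and 648 CPM at P5 and at 588, 579 and 631 CPM at P8. It rose by 0.40 between the embryonic time-points (edgeR FDR = 0.0017) and fell by 0.64 after birth (0.06 standard error, edgeR FDR = 1.2e-06), so that all 6 postnatal libraries were below all 6 embryonic ones. Per kilobase of exon, Scd1 stood at 0.0163 to 0.0225 of the Scd2 level in the embryonic libraries and at 0.650 to 1.05 of it in the postnatal ones. The mean level per kilobase of exon was 111.5 CPM for Scd1 and 121.2 CPM for Scd2 at P5. Of the stretches of 50 bases in their transcripts, 4.56% for Scd1 and 3.97% for Scd2 also occur in another gene, most of them in other Scd genes.

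**Figure D2:**
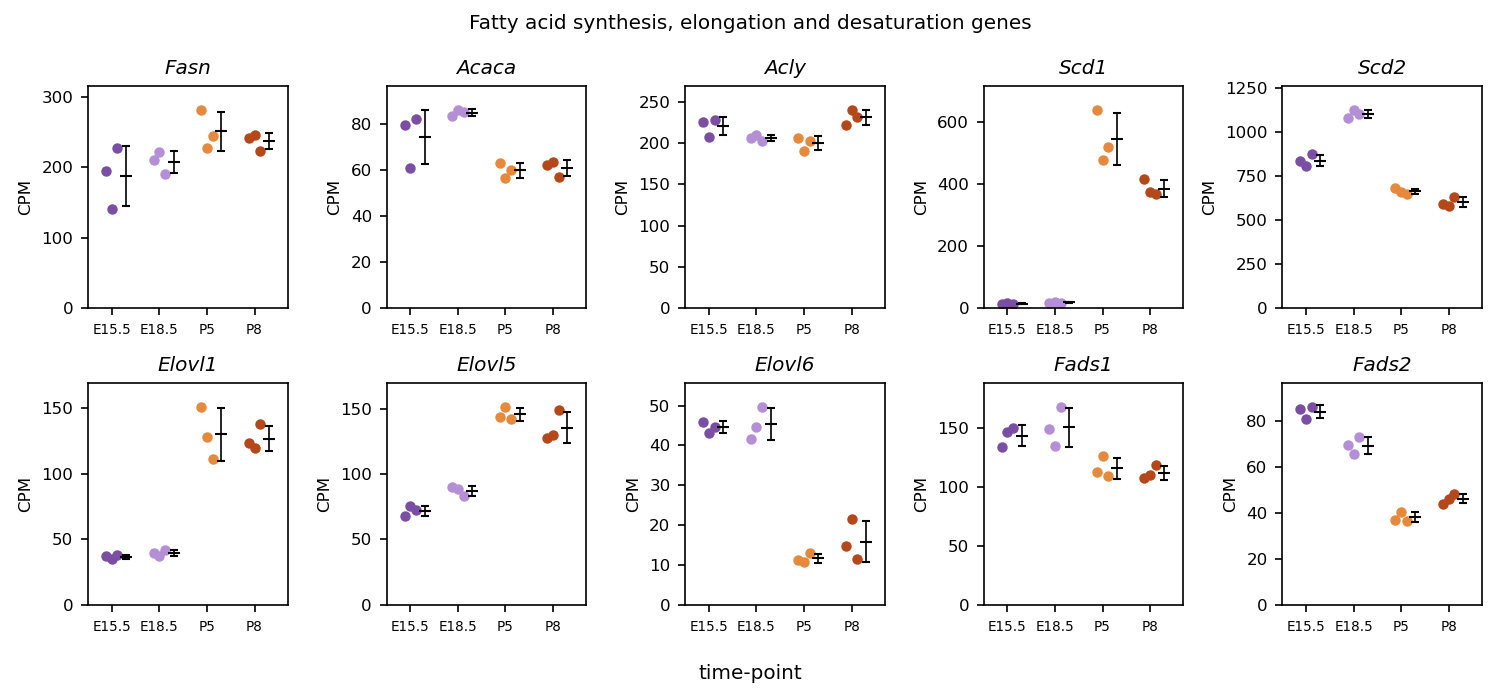
CPM of the 10 fatty acid genes (y axis, from 0, separate scale for each gene) at 4 time-points (x axis), with 1 point per library and the mean ± SD of 3 replicates beside them. Scd1 is near 0 before birth and high after it, Elovl1 and Elovl5 are higher after birth, Scd2, Elovl6 and Fads2 are high before birth, and Acly is level.

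Of the 3 elongases, Elovl1 and Elovl5 rose and Elovl6 fell. Elovl1, which lengthens saturated very long chains, was at 39.4, 37.1 and 42.2 CPM at E18.5 and at 151, 128 and 111 CPM at P5. It rose by 1.81 on the log2 scale (3.51-fold, standard error 0.11 in log2, edgeR FDR = 3.1e-08). Elovl5, which lengthens polyunsaturated chains, rose from 89.96, 88.4 and 82.9 CPM to 143, 151 and 142 CPM (by 0.83 ± 0.07 in log2, edgeR FDR = 3.3e-07), and it had risen by 0.28 already between E15.5 and E18.5 (edgeR FDR = 0.013). Elovl6, which takes palmitate to stearate, fell from 41.6, 44.7 and 49.7 CPM at E18.5 to 11.3, 10.8 and 12.9 CPM at P5 (3.65-fold lower, -1.87 ± 0.17 in log2, edgeR FDR = 8.4e-07). For all 3 genes the 6 embryonic and 6 postnatal libraries did not overlap. Among all genes tested, 26.6% had every postnatal library above every embryonic one and 32.5% had every one below.

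At P8 Elovl6 was at 14.7, 21.5 and 11.4 CPM. The pair of libraries with the higher values, replicates 1 and 2, were those rich in adipocyte markers. From P5 to P8 the log2 fold change was 0.42 (edgeR FDR = 0.10), and it was -0.003 without the 3 libraries richest in those markers and 0.60 without P8 replicate 3 (FDR = 0.0057, between 0.0057 and 1.0 over 22 alternatives). Per kilobase of exon, Elovl1 was 1.91 to 2.23 times Elovl6 before birth and 13.2 to 31.6 times after it.

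The desaturases of polyunsaturated fatty acids both fell. Fads2, the first desaturase of that route, was at 84.9, 80.8 and 86.0 CPM at E15.5, at 69.3, 65.3 and 72.7 CPM at E18.5, at 37.0, 40.5 and 36.5 CPM at P5 and at 44.0, 46.2 and 48.2 CPM at P8. It fell by 0.27 before birth (edgeR FDR = 0.0093) and by 0.78 across birth (0.06 standard error, edgeR FDR = 2.5e-07), then rose by 0.26 to P8 (edgeR FDR = 0.015). Fads1, its neighbour on chromosome 19, went from 148.5, 134 and 168 CPM to 112, 126 and 109 CPM (-0.29 ± 0.08 in log2, edgeR FDR = 0.0077). The postnatal libraries were below the embryonic ones for both genes, as for 32.5% of all genes tested, with a narrow gap for Fads1.

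Among the regulators Srebf2 and Scap fell from E18.5 to P5 and Insig1 rose, but none of these passed the threshold from E15.5 to P8. Srebf1, whose product drives fatty acid genes, was at 99.6, 109 and 96.2 CPM at E18.5 and at 95.3, 92.8 and 91.2 CPM at P5, with a log2 fold change of -0.04 (95% interval -0.22 to 0.14, edgeR FDR = 0.74). Srebf2, whose product drives sterol genes, fell from 257, 215 and 218 CPM to 157, 153 and 150 CPM (-0.50 ± 0.07 in log2, edgeR FDR = 5.3e-05). Scap, the escort, fell by 0.22 (edgeR FDR = 0.015), which was lost in 1 of 22 alternatives, that without E18.5 replicate 1 (-0.18, FDR = 0.058, between 0.0013 and 0.058 over all of them). Insig1, which retains the SCAP complex and is itself an SREBP target, rose from 53.0, 50.2 and 41.7 CPM to 64.6, 62.4 and 65.8 CPM (by 0.50 ± 0.09 in log2, edgeR FDR = 0.00034). In CPM the 3 values of Srebf1 at P5 lay just under those of E18.5, a gap inside its interval, while those of Srebf2 were well apart. Per kilobase of exon, Srebf1 was 0.495 to 0.677 times Srebf2 in embryonic libraries and 0.738 to 0.907 times in postnatal ones. From E15.5 to P8 Insig1 changed by 0.03 (edgeR FDR = 0.75) and Scap by -0.08 (edgeR FDR = 0.31). Srebf2 changed by -0.10 (edgeR FDR = 0.21), although its postnatal libraries were all below its embryonic ones in CPM. Mean Insig1 was 58.4 CPM at E15.5 and 56.8 CPM at P8. Mean Scap was 47.8 CPM at E18.5 and 47.6 CPM at P8. Srebf1 rose by 0.30 from E15.5 to P8 (edgeR FDR = 0.01), and the value was 0.07 without the 3 adipocyte-rich libraries.

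Of the sterol genes 7 of 9 fell across birth. In the order of the pathway, Hmgcs1, which makes HMG-CoA, was at 159, 129 and 153 CPM at E18.5 and 121, 117 and 121 CPM at P5. Its log2 fold change of -0.21 missed the threshold (95% interval -0.38 to -0.03, edgeR FDR = 0.052) and passed it in 9 of 22 alternatives (FDR between 0.0084 and 0.20), among them those without E18.5 replicate 2 (-0.30), P5 replicate 1 (-0.25) and each P8 replicate. Mvk, the mevalonate kinase, fell from 31.4, 40.1 and 39.0 CPM to 25.8, 26.1 and 25.2 CPM (log2 fold change -0.43, edgeR FDR = 0.0007). Mvd, which makes isopentenyl diphosphate, fell by 0.37 (edgeR FDR = 0.0043), and Idi1, its isomerase, by 0.40 (edgeR FDR = 0.0004). The early and middle steps thus lost between 1.29-fold and 1.35-fold where they passed the test.

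Fdft1, the squalene synthase, was at 57.98, 47.2 and 50.5 CPM at E18.5 and 33.4, 34.0 and 28.55 CPM at P5 (-0.61 ± 0.10 in log2, edgeR FDR = 0.00012). Sqle, the squalene epoxidase, which is a rate-limiting enzyme of the late pathway, went from 86.0, 78.6 and 85.8 CPM to 43.0, 45.6 and 42.1 CPM (1.80-fold lower, -0.85 ± 0.08 in log2, edgeR FDR = 1.3e-06). Its 12 libraries showed the lowest embryonic value at 78.6 CPM and the highest postnatal value at 56.0 CPM. Dhcr7, which completes cholesterol, fell from 34.3, 34.4 and 39.7 CPM to 21.1, 20.4 and 19.6 CPM (-0.74 ± 0.08 in log2, edgeR FDR = 2.9e-06), and Lss, which closes the sterol rings, fell by 0.42 (edgeR FDR = 0.00068).

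Fdps, the farnesyl diphosphate synthase, was too low for a firm reading. It was at 0.534 to 1.87 CPM over the 12 libraries, with a log2 fold change of 0.33 from E18.5 to P5 (95% interval -0.32 to 0.98, edgeR FDR = 0.39). Its mean per kilobase of exon was at most 0.311 CPM at any time-point, while the next lowest sterol gene, Lss, was at 1.68 CPM or more. In the annotation, 26.7% of its exon bases lie inside another gene and 26.2% of its stretches of 50 bases occur in other genes. The part of such overlap in the low value was not tested.

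**Figure D3:**
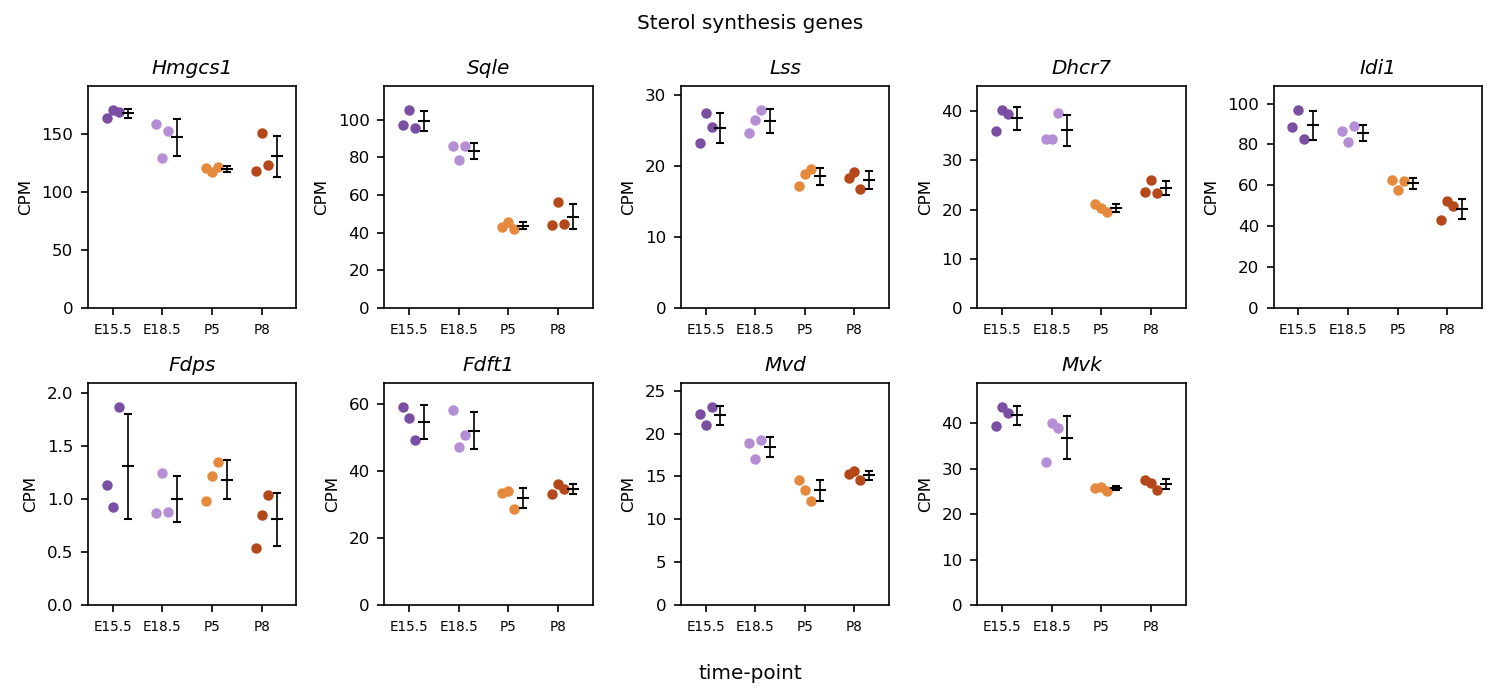
CPM of the 9 sterol genes (y axis, from 0, separate scale for each gene) at 4 time-points (x axis), with 1 point per library and the mean ± SD of 3 replicates beside them. For 7 of the 9 genes all postnatal points lie under all embryonic ones. Hmgcs1 overlaps at P8, where replicate 2 is at 151 CPM, and Fdps stays below 2 CPM throughout.

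For 7 of the 9 sterol genes (all but Hmgcs1 and Fdps), the 6 postnatal libraries were all below the 6 embryonic ones, and for none were they all above. Among all genes tested, 32.5% had all postnatal libraries below and 26.6% had all above. By the same measure 4 of 10 fatty acid genes were lower and 3 higher, 1 of 4 regulators was lower and none higher, and 3 of 9 phospholipid genes were higher and none lower. Every fall of a sterol gene was under 2-fold. The 4 markers of proliferating cells fell over the same interval, their summed level going from 1208 to 1289 CPM at E18.5 to 445 to 468 CPM at P5, and their part in the fall of the sterol genes was not tested.

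Of the phospholipid genes 6 of 9 rose across birth, a count that ran from 3 to 7 over 22 alternatives. Gpam, the mitochondrial acyltransferase that starts glycerolipid synthesis, rose by 0.32 from E15.5 to E18.5 (edgeR FDR = 0.014) and by 0.20 from E18.5 to P5 (edgeR FDR = 0.032). The second step was lost in 7 of 22 alternatives (FDR between 0.0058 and 0.19), with values of 0.14, 0.16, 0.17 and 0.20 without P5 replicate 1, E18.5 replicate 3, E18.5 replicate 1 and P5 replicate 3. Lpin1 and Lpin2 are lipins, phosphatidate phosphatases that make diacylglycerol and also act as transcriptional coactivators. Lpin1 was at 7.10, 7.65 and 7.63 CPM at E15.5, at 19.2, 10.9 and 11.2 CPM at E18.5, at 21.1, 20.7 and 20.9 CPM at P5 and at 23.0, 31.4 and 23.0 CPM at P8. It rose in both intervals around birth, by 0.89 ± 0.20 (standard error, edgeR FDR = 0.0087) and by 0.69 ± 0.19 (edgeR FDR = 0.0065).

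The split of the Lpin1 rise between those intervals rests on 1 library. E18.5 replicate 1, at 19.2 CPM, stood near the P5 values, while the other two were at 10.95 and 11.2 CPM. Without it the first step was 0.57 and the second 1.01, and both stayed past the threshold (FDR between 8.5e-05 and 0.14 over 22 alternatives for the first, between 3.2e-05 and 0.033 for the second). The first step lost its call when E15.5 replicates 1 and 2 were both left out (0.85, FDR = 0.14). Over the whole course, Lpin1 rose by 1.86 (standard error 0.20, 3.64-fold, edgeR FDR = 2.5e-06), the largest change of the 9 phospholipid genes in that comparison.

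Lpin2 was at 64.5, 58.6 and 59.0 CPM at E18.5, at 90.2, 76.6 and 81.2 CPM at P5 and at 63.3, 62.0 and 67.8 CPM at P8. It rose by 0.53 to P5 (edgeR FDR = 7.8e-05) and fell by 0.38 to P8 (edgeR FDR = 0.01), so its peak was at P5. Lpin1 had no such fall, with 0.28 from P5 to P8 (95% interval -0.09 to 0.66, edgeR FDR = 0.32). The difference in course between the lipins was not tested. The fall of Lpin2 was -0.35 without the 3 adipocyte-rich libraries (FDR = 0.30, between 0.0011 and 0.30 over 22 alternatives).

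Agpat2, the acyltransferase that makes phosphatidic acid and is needed for fat cell development, varied strongly between libraries of 1 time-point after birth. It was at 17.6, 18.6 and 19.5 CPM at E15.5, at 18.51, 21.0 and 19.9 CPM at E18.5, at 24.4, 30.0 and 34.7 CPM at P5 and at 51.8, 84.0 and 22.7 CPM at P8. Within P5 and within P8 the order of the libraries was the same as that of the summed adipocyte markers, which at P8 were 397, 782 and 21.2 CPM. The 6 postnatal libraries were all above the embryonic ones. From E15.5 to P8 the log2 fold change was 1.58 (standard error 0.33, edgeR FDR = 0.00071), and without P5 replicate 3 and P8 replicates 1 and 2 it was 0.36 (FDR = 0.027, between 4.2e-07 and 0.027 over 22 alternatives). Without P8 replicate 2 alone it was 1.10. The step from E18.5 to P5 was 0.67 (edgeR FDR = 0.081) with all libraries and 0.55 (FDR = 0.00078, between 0.00035 and 0.20) without those 3. It also passed without P8 replicate 2 or 3 (0.66 in both fits). From P5 to P8 it was 0.82 (edgeR FDR = 0.095) with all libraries, 1.16 (FDR = 0.00067) without P8 replicate 3, 0.33 (FDR = 0.45) without P8 replicate 2 and -0.30 (FDR = 0.36) without the 3 adipocyte-rich ones, so the direction of that step turned. Of the 7 adipocyte markers 6 were tested, and all 6 rose from E18.5 to P5. Their level was uneven at P5, where the 7 summed to 3.69, 26.9 and 146 CPM in replicates 1, 2 and 3. From P5 to P8, 1 of the 6 rose.

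**Figure D4:**
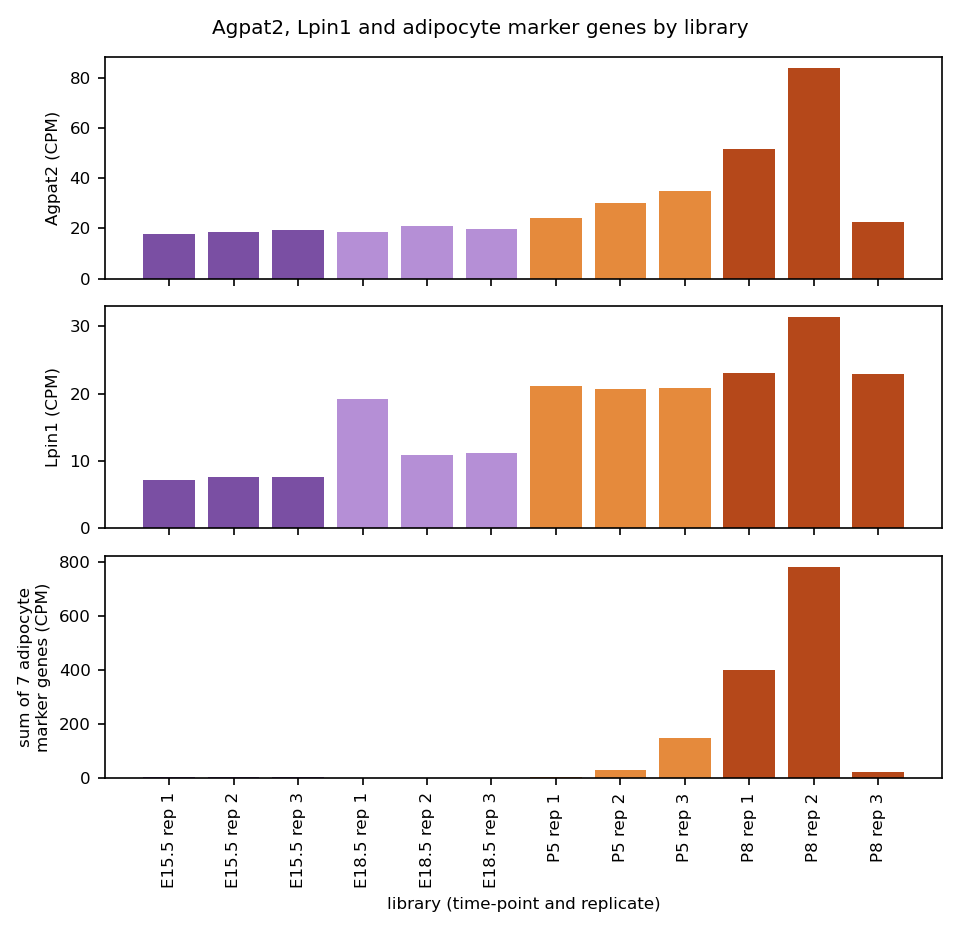
CPM of Agpat2 (top), of Lpin1 (middle) and of the sum of 7 adipocyte marker genes (bottom) in each of 12 libraries, coloured by time-point, all axes from 0. Agpat2 peaks at 84.0 CPM in P8 replicate 2, where the marker sum is 782 CPM, and is 22.7 CPM in P8 replicate 3, where the sum is 21.2 CPM. Lpin1 spans 20.7 to 31.4 CPM in the postnatal libraries.

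In the choline branch Pcyt1a, Chka and Chkb rose across birth. Pcyt1a, the cytidylyl transferase that sets the rate of phosphatidylcholine synthesis, was at 79.2, 69.2 and 80.1 CPM at E15.5, at 87.7, 89.6 and 84.1 CPM at E18.5, at 108, 103 and 98.9 CPM at P5 and at 98.5, 113 and 112 CPM at P8. Its rise from E18.5 to P5 was 0.33 ± 0.07 in log2 (1.26-fold, edgeR FDR = 0.00099), and every postnatal library was above every embryonic one. Chka and Chkb, the choline kinases, rose by 0.25 (edgeR FDR = 0.042) and 0.40 (edgeR FDR = 0.024). Both calls were fragile: Chka kept its call in 11 of 22 alternatives (FDR between 0.0083 and 0.17) and Chkb in 15 (FDR between 0.0035 and 0.093). Chka lost it without any 1 of E15.5 replicate 1, E18.5 replicates 2 and 3, the P5 replicates and P8 replicates 1 and 2 (values 0.21 to 0.26), and Chkb without E18.5 replicates 1 or 3 or P5 replicates 2 or 3 (values 0.31 to 0.39). In the annotation 57.6% of the exon bases of Chkb lie inside another gene, so its level is uncertain. Such overlap passed 5% in 8 of the 32 genes, also in Fdps, Cept1 (24.9%), Fdft1 (18.3%), Scap (13.2%), Hmgcs1 (12.1%), Idi1 (9.22%) and Pcyt1a (9.09%). Stretches of 50 bases found in other genes made up 30.4% for Acaca, 26.5% for Fdft1 and 25.3% for Idi1. The part of shared sequence in the levels and changes of these genes was not tested.

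Cept1, which joins choline or ethanolamine to diacylglycerol, rose before birth. It was at 33.9, 36.5 and 34.9 CPM at E15.5 and at 47.6, 45.3 and 42.4 CPM at E18.5 (log2 fold change 0.37, edgeR FDR = 0.014), then at 46.8, 47.2 and 44.4 CPM at P5 (0.12, 95% interval -0.05 to 0.29, edgeR FDR = 0.24). Without E18.5 replicate 1 the first step was 0.32 (FDR = 0.055, between 0.0018 and 0.15 over 22 alternatives). Pemt, which methylates phosphatidylethanolamine in liver, stayed at 2.38 to 3.97 CPM in all libraries and had a log2 fold change of -0.30 across birth (95% interval -0.66 to 0.05, edgeR FDR = 0.15). Without E18.5 replicate 1 it was -0.44 (FDR = 0.048, between 0.048 and 0.47 over 22 alternatives).

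**Figure D5:**
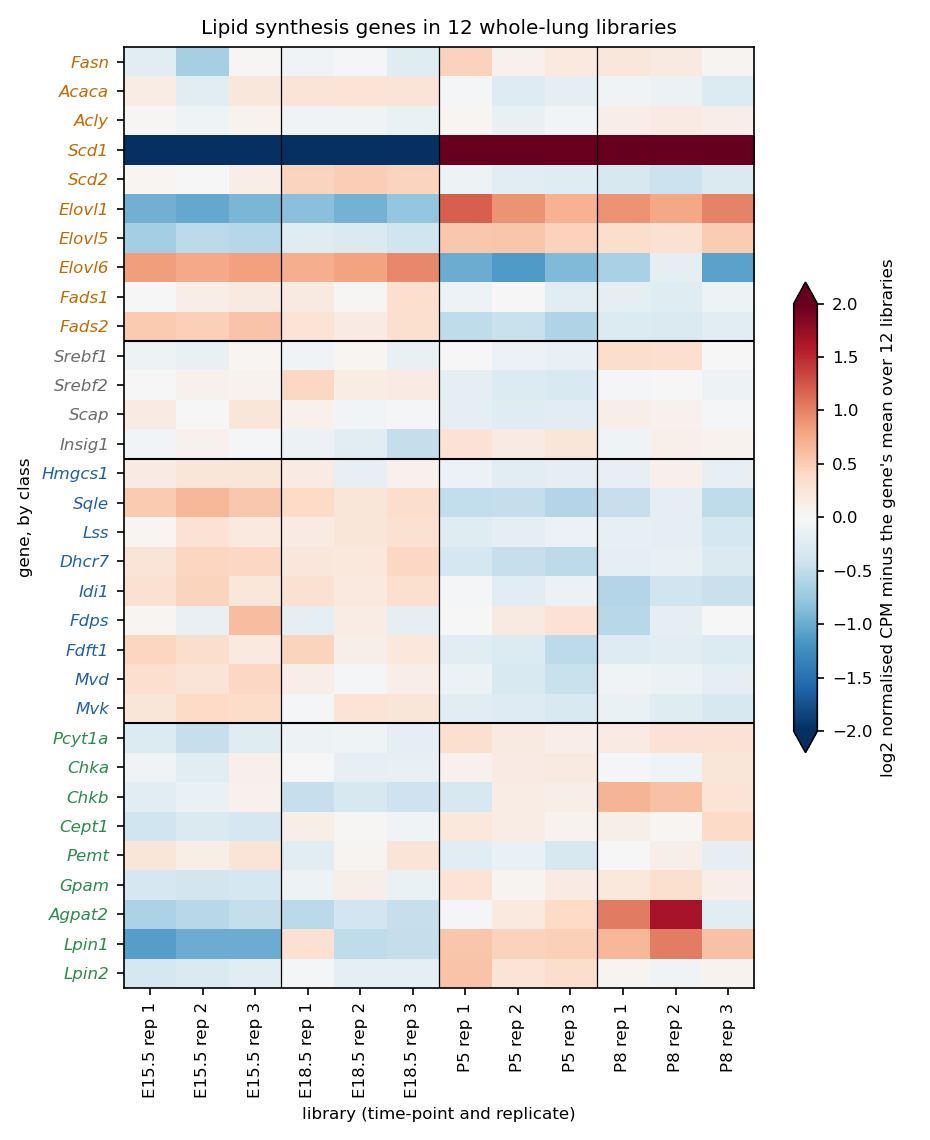
Each row is 1 of the 32 genes, grouped by class, and each column 1 of the 12 libraries. The colour is the log2 normalised CPM minus the mean of that gene over the libraries, limited to 2 in either direction. Sterol genes other than Fdps are mostly red before birth and blue after it, Lpin1 and Agpat2 are mostly blue before birth and red after it, and Scd1 is at both limits of the scale.

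The median of each class was also taken by library. Relative to its mean over 12 libraries, the median sterol gene stood at 0.16 to 0.37 log2 units in the embryonic libraries and at -0.31 to -0.20 in the postnatal ones. The median phospholipid gene stood at -0.34 to -0.10 in the embryonic libraries and at 0.16 to 0.29 in the postnatal ones. The median fatty acid gene ranged over -0.16 to 0.10 before birth and -0.12 to 0.03 after it, so the stages overlapped. In summed CPM, the 9 sterol genes went from 456 to 562 CPM in embryonic libraries to 324 to 384 CPM in postnatal ones, and the 9 phospholipid genes from 301 to 363 CPM to 418 to 495 CPM.

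Between the embryonic time-points few of these genes moved. From the first to the second, 5 of 32 genes rose (15.6%), namely Scd2, Elovl5, Cept1, Gpam and Lpin1, and 2 fell (6.25%), Fads2 and Sqle. The background was 11.6% of all genes tested that rose and 9.87% that fell. None was past both cutoffs, against 1.59% of all genes higher and 1.46% lower by them, while 13 of the 32 had an unadjusted p under 0.05, against 36% of all genes tested. DESeq2 and limma also called none of them past both. Sqle was just under the threshold (log2 fold change -0.24, edgeR FDR = 0.0497), and its call was kept in 6 of 22 alternatives (FDR between 0.023 and 0.35), which with 1 library left out meant only the fits without P8 replicate 2 or 3. Elovl5 lost its call without E15.5 replicate 1 (0.24, FDR = 0.053) or E18.5 replicate 1 (0.25, FDR = 0.054), and Gpam without E18.5 replicate 2 (0.24, FDR = 0.059). Over 22 alternatives the FDR ran from 0.0019 to 0.15 for Elovl5 and from 0.0015 to 0.16 for Gpam. With 1 library left out, calls were gained by Scd1 without P5 replicate 1 (0.33), by Insig1 without E18.5 replicate 1 (-0.35) and by Pcyt1a without E15.5 replicate 3 (0.25). With the cardiac-rich E15.5 replicates 1 and 2 left out, 1 library remained at E15.5, assumed to vary like the others, and none of the 7 calls was kept, while calls over all genes went from 3441 to 671. The values stayed near those with all libraries, at 0.33 for Scd2, 0.26 for Elovl5, 0.36 for Cept1, 0.32 for Gpam, 0.85 for Lpin1, -0.32 for Fads2 and -0.20 for Sqle. The largest class median was that of the sterol genes, -0.18, beside -0.008 for all genes tested.

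Between the postnatal time-points the calls were also few. From P5 to P8, Acly, Fads2, Srebf1, Scap and Chkb rose (15.6% of 32) and Scd1, Idi1 and Lpin2 fell (9.38%), against 9.75% and 8.21% of all genes tested. None passed both cutoffs, against 2.88% higher and 0.0875% lower of all genes, and 14 of the 32 had an unadjusted p under 0.05, against 34% of all genes tested, with none past both by DESeq2 or limma either. Idi1 continued down, from 62.5, 57.9 and 62.3 CPM at P5 to 42.9, 52.3 and 49.8 CPM at P8 (log2 fold change -0.35, edgeR FDR = 0.01). Srebf1 was at 124, 129 and 101 CPM at P8, higher in the libraries rich in adipocyte, thymocyte and squamous markers, and its rise of 0.33 (edgeR FDR = 0.031) became 0.06 without the 3 adipocyte-rich libraries (FDR = 0.88, between 0.003 and 0.88 over 22 alternatives). Chkb, at 25.8, 25.6 and 20.4 CPM at P8, was also lowest in replicate 3, with 0.54 (edgeR FDR = 0.024) against 0.35 without those libraries (FDR = 0.49, between 0.0025 and 0.49). With those 3 libraries left out only 1 remained at P8, and none of the 8 calls was kept, while calls over all genes went from 2872 to 25. The values of Fads2 (0.27), Idi1 (-0.32), Lpin2 (-0.35) and Acly (0.17) stayed near those with all libraries, and that of Scap was 0.20 against 0.28. With 1 library left out at a time, the genes that rose numbered 0 when P8 replicate 1 was absent, 1 when P8 replicate 2 or P5 replicate 3 was, and 2 when P5 replicate 1 or 2 was. Fads2 lost its call in 3 such fits (without P5 replicate 1 or 3 or P8 replicate 1, values 0.21 to 0.26), Scap in 5 (any P5 replicate, P8 replicate 1 or 2, values 0.24 to 0.29), and Acly in 7 (E15.5 replicate 1, E18.5 replicate 2, P5 replicate 2 or 3, any P8 replicate, values 0.14 to 0.19). Srebf1 lost it in 4 (P5 replicate 2 or 3, P8 replicate 1 or 2, values 0.25 to 0.30) and Chkb in 3 (P5 replicate 1, P8 replicate 1 or 2, values 0.39 to 0.50). The number that fell was 5 without P8 replicate 3, where Scd2 (-0.21) and Elovl5 (-0.21) were called as well.

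From E15.5 to P8, the ends of the series, 13 of the 32 genes rose (40.6%) and 12 fell (37.5%), near the background of 37.6% and 38.7%. Of the sterol genes 8 of 9 fell and none rose, with a median log2 fold change of -0.58. Of the phospholipid genes 7 of 9 rose and none fell, with a median of 0.58. Without the 3 adipocyte-rich libraries 6 rose and the median was 0.38, and without the cardiac-rich ones 5 rose and it was 0.49. All genes tested had a median of -0.024. Sqle fell by 0.97 (1.95-fold, edgeR FDR = 3.1e-07) and Idi1 by 0.81 (1.76-fold, edgeR FDR = 7.2e-07). Past both cutoffs were Scd1 (4.84), Elovl1 (1.86), Lpin1 (1.86) and Agpat2 (1.58) upwards, 12.5% of the 32 genes, and Elovl6 (-1.42) downwards, 3.12%, against 20.9% and 11.5% of all genes tested. This comparison uses the same libraries as those above. Acaca, at -0.21 (edgeR FDR = 0.081), was -0.34 without E15.5 replicate 2 (FDR = 0.0019, between 0.0019 and 0.31 over 22 alternatives), and Fdps passed only just without the same library (-0.82, FDR = 0.049, between 0.023 and 0.66). Fasn rose by 0.42 (edgeR FDR = 0.021), which was 0.25 (FDR = 0.073, between 0.0025 and 0.44) without E15.5 replicate 2 and also lost its call without P8 replicate 1 (0.38) or 2 (0.41), and Acly rose by 0.14 (edgeR FDR = 0.042), lost without most single libraries, E15.5 replicates 1 and 2, E18.5 replicate 2, P5 replicates 2 and 3 and all P8 replicates (values 0.10 to 0.15).

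Other genes of the same pathways were counted from lists of 71 genes, of which 67 were tested. From E18.5 to P5, 30 of the 67 rose and 24 fell, 12 and 6 of them past both cutoffs, beside the 35.4%, 35.7%, 17.5% and 9.34% of all genes tested that did so. Against those shares the counts by list below are to be read. Of 12 other sterol genes tested, 5 fell and 3 rose (median -0.17), beside the 7 of 9 that fell among the genes above. Acat2, the thiolase that makes acetoacetyl-CoA, fell by 1.11 (edgeR FDR = 2.6e-06). Of 9 other genes of sterol and SREBP control, 4 rose and 4 fell.

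Of 26 other phospholipid genes tested, 13 rose and 8 fell (median 0.22). Lpcat1, which remodels phosphatidylcholine to the surfactant form in AT2 cells, went from 164, 202 and 162 CPM to 575, 525 and 513 CPM (log2 fold change 1.70, edgeR FDR = 3.2e-08). Cds1, which makes CDP-diacylglycerol, rose by 1.89 (edgeR FDR = 5.1e-07) and Etnk2, an ethanolamine kinase, fell by 1.52 (edgeR FDR = 0.0002). The 7 AT2 markers all rose over the same interval, from a summed 1266 to 2190 CPM to 17060 to 19770 CPM. All 6 alveolar macrophage markers rose as well, from 18.6 to 21.2 CPM in sum to 94.9 to 155 CPM, and 3 of 5 lipofibroblast markers rose and 1 fell, with a sum of 333 to 397 CPM before and 522 to 590 CPM after. Both endothelial markers rose, with a sum of 623 to 693 CPM before and 1314 to 1417 CPM after. Of 3 epithelial markers 2 fell and none rose, with a sum of 595 to 686 CPM before and 372 to 402 CPM after. The 2 lung mesenchyme markers neither rose nor fell. The part of these markers in the rise of Lpcat1, of Scd1 and of the phospholipid genes, and in the fall of the sterol genes, was not tested. Of 20 other fatty acid genes tested, 10 rose and 7 fell (median 0.53). The largest among those past both cutoffs were Thrsp at 3.56 (edgeR FDR = 0.018), Scd4 at 2.27 (edgeR FDR = 0.015) and Elovl2, another elongase of polyunsaturated chains, at -2.22 (edgeR FDR = 1.6e-05). Thrsp, a lipogenic protein of liver and fat, was at 0.610, 0.908 and 6.10 CPM at P5 and 17.2, 32.1 and 0.904 CPM at P8, in the order of the adipocyte markers, and Scd4 was under 4 CPM in all libraries.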

How the data were processed

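The authors extracted RNA from flash-frozen whole lungs with the RNeasy Plus Mini kit, prepared TruSeq libraries, sequenced 101-nt paired ends, aligned to mm10 with TopHat2 2.1.1 and Bowtie2 2.3.4 and counted reads per Gencode vM14 gene with HTSeq-count 0.10.0. The deposited counts are not normalized and cover 16152 genes, kept by the authors after a filter on low levels. The deposited CPM are counts divided by the total mapped reads, for 51825 genes. All CPM values came out as whole reads within 0.1 read. A deposited table of splicing values per event was not used. Gene symbols were matched for 16136 of 16152 identifiers. Gene positions and exon lengths are from Gencode vM21 (GRCm38), promoters from RefSeq (GRCm38.p6).

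Counts were tested with edgeR 4.0.16 (quasi-likelihood, TMM, R 4.3.3) in 1 fit of 12 libraries, keeping 15994 genes (1 CPM or more in 3 or more libraries), with Benjamini-Hochberg adjustment. Intervals use the standard error and a normal approximation and, like the p-values, cover the spread between litter mates only. On simulated counts for E18.5 to P5, 197 of 200 genes changed by a log2 fold change of 1.5 were recovered past both cutoffs, with 3 false calls over 15994 genes. Genes at low levels were not among those changed. Smaller changes, such as most of those reported here, were not simulated, so their recovery is not known. Alternatives were RLE factors, library size only, DESeq2 1.42.0, no filter, only the time-points compared, a replicate block, limma 3.58.1 on log2(CPM + 1) and each library left out. Added after the data were seen were reads recovered from CPM, the fit without P5 replicate 3 and P8 replicates 1 and 2 (adipocyte markers), and the fit without E15.5 replicates 1 and 2 (cardiac markers). Earlier results of these data were known when the genes, lists and tests were chosen, although no measured value was used to choose the 32 genes. All 32 genes were named, and of the other lists at most 3 genes past both cutoffs by size of change from E18.5 to P5, plus Lpcat1. Genes that this rule also names but that are withheld are not reported here.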

Additional observations from a re-analysis of the deposited data

How the results depend on the processing

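The number of genes past both cutoffs was 0, 3, 0 and 5 for E15.5 to E18.5, E18.5 to P5, P5 to P8 and E15.5 to P8. At a log2 cutoff of 0.58 it was 1, 10 and 12 for the first, second and last, and with 1 library left out it ranged from 0 to 1, 3 to 4, 0 to 1 and 5 to 7. From E15.5 to E18.5, genes that rose numbered 5 (3 to 6 with 1 library left out, 0 without the cardiac-rich libraries), and genes that fell numbered 2 (1 to 2 with 1 left out, 1 with RLE factors, with no filter, with the replicate block and with recovered reads, 4 with library size only, 0 without the cardiac-rich libraries). From E18.5 to P5, genes that rose numbered 11, and 7 with library size only, 7 with limma and 7 to 11 with 1 left out, the lowest without E18.5 replicate 3 or P5 replicate 3. Genes that fell were 14 (14 to 15). From P5 to P8, genes that rose numbered 5, and 8 with DESeq2, 0 without the adipocyte-rich libraries and 0 to 7 with 1 left out. Genes that fell numbered 3, and 0 without the adipocyte-rich libraries and 2 to 5 with 1 left out. From E15.5 to P8, genes that rose numbered 13, and 8 without the cardiac-rich libraries. The cause of these shifts was not tested. Fits with libraries left out also had fewer samples, and the part of that was not tested either. No value past the threshold reversed under any alternative run. Over the 22 alternatives, the sterol median from E18.5 to P5 ranged from -0.49 to -0.38, and 7 to 8 sterol genes fell in each. The phospholipid median ranged from 0.24 to 0.35, but the phospholipid genes that rose numbered from 3 to 7, and 0 to 1 fell. Correlations of same-numbered libraries ran from -0.34 to 0.30. Differently numbered libraries were not compared, so these values cannot decide whether replicate numbers pair the samples. The replicate block gave 5, 11, 4 and 12 genes that rose and 1, 14, 3 and 12 that fell. At about 1 CPM, Fdps had the widest intervals of the sterol genes.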
